A study of Ptychidio jordani with 7 samples.

Results

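The kidney library of Ptychidio jordani, the ratmouth barbel, a river fish related to carp, was compared with the muscle library of the same series. RNA from 7 tissues was sequenced, and each of them (kidney, muscle, heart, gill, caudal fin, liver and spleen) has 1 sample. The labels call the samples normal; they give no treatment, age, sex or muscle region, and they do not say whether the tissues came from the same fish. Expression is given as FPKM, fragments per kilobase of transcript scaled to the fragments of the library, so levels are per length and can be compared between genes. A gene entered the comparison when its FPKM reached 10 in kidney or in muscle, which kept 8489 of 26107 genes. Each was given a log2 ratio of kidney to muscle after adding 1 to both values, and every fold below is on that scale. A gene is called higher in a tissue where the ratio reached 5-fold (2.32 on the log2 scale). With 1 sample a tissue no difference has a replicate check and no test was possible. Read totals are not in the table, so the depth and the counting error behind each value are unknown.

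A fish kidney holds nephrons, whose tubules reclaim salts, sugars and amino acids and secrete organic anions, and it is also the main blood-forming organ, where red cells, granulocytes and antibody-producing cells arise. Skeletal muscle is built of sarcomeres, in which myosin pulls on actin filaments that troponin and tropomyosin switch on by calcium. Fast fibres make up most of a fish's trunk muscle, burn glycogen and phosphocreatine, and hold much parvalbumin, a protein that takes up calcium and so speeds relaxation. The roles named below are those known from mammals or zebrafish, since the symbols in the deposited table were given by likeness to proteins of other species.

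The labels of both libraries were checked against markers of their tissues. Slc6a13 (Pjo18630), a GABA and taurine carrier of the kidney tubule, had an FPKM of 278 in kidney, 8.70 in muscle, 2.69 in fin and at most 0.25 in heart, gill, liver and the library labelled spleen. The alpha globin hba (Pjo03032) stood at 67752 in kidney, 2007 in muscle, 31174 in heart, 8918 in gill, 521 in the library labelled spleen, 1199.6 in liver and 2811 in fin. The fast troponin I TNNI2 (Pjo24475) stood at 4619 in muscle, 0.11 in kidney, 1.32 in gill and at most 0.09 in the other 4 libraries. Slc6a13 and hba were highest in kidney and TNNI2 in muscle. Both libraries also held egg coat genes, which neither label explains, at 5.62% of the FPKM of kidney and 10.8% of those of muscle. For the spleen sample the wording is library labelled spleen, since liver genes lead it. In a whole tissue, fewer cells of a type and less RNA per cell cannot be told apart.

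Of the 8489 genes, 501 (5.9%) were higher in kidney and 234 (2.76%) in muscle, 8.66% in all. Another 7085 genes (83.5%) lay within 2-fold. The median log2 ratio was -0.08 and the middle 50% of genes ran from -0.38 to 0.26. Calls in muscle were fewer and larger: their median log2 ratio was -4.34, against 3.21 for the calls in kidney, and 49 genes reached 100-fold in muscle against 2 in kidney. The genes higher in kidney made up 23.3% of all FPKM in kidney and 1.02% in muscle. Those higher in muscle made up 12.5% of the sum in muscle and 0.0882% in kidney. Scaling by the median of ratios moved the median of all compared genes to -0.48, and a common sum without the egg coat, oocyte and germ line genes moved it to -0.30. A common sum without the globins moved it to 0.08, and small differences are therefore read only relative to these medians.

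**Figure D1:**
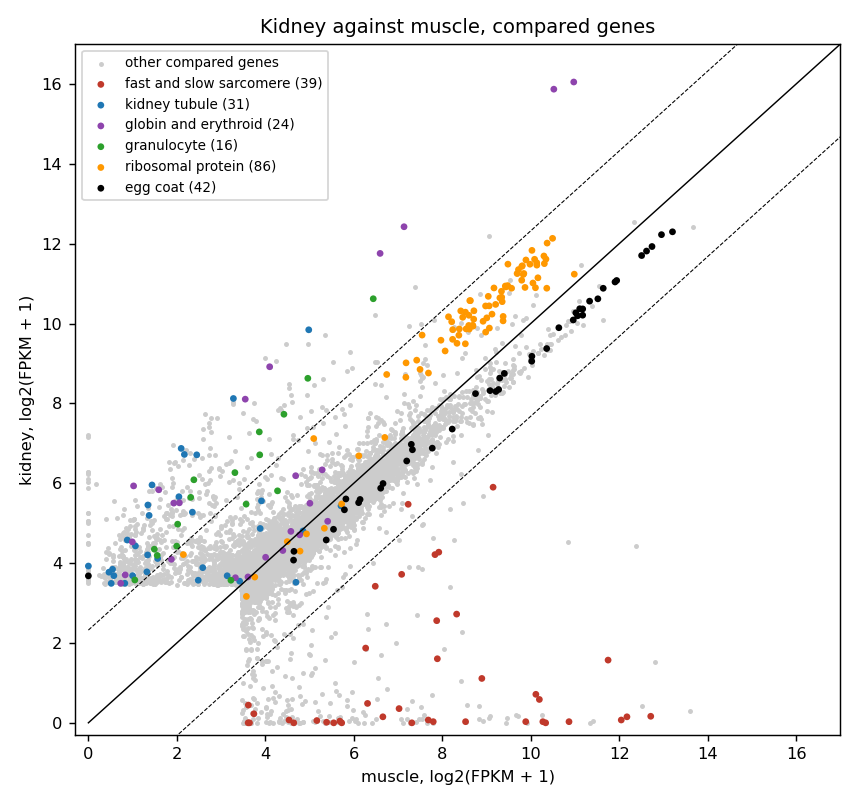
Each point is 1 of the 8489 compared genes, with log2(FPKM + 1) in muscle on the x axis and in kidney on the y axis; colours mark gene groups with the number of compared genes in each, the solid line equal levels and the dashed lines the 5-fold limits. Most sarcomere genes lie along the bottom at kidney levels near 0, tubule, blood and granulocyte genes above the upper line, egg coat genes in a band just under the diagonal, and ribosomal protein genes in a band above it.

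Among the 21 possible pairs of libraries, this one had the second-lowest share of called genes. The pair was chosen because it was the second closest, so its rank restates that choice. Liver and the library labelled spleen differed at 5.39% of 2766 genes, and gill and fin at 14.2% of 8313 genes. Kidney and muscle were both above each of the other 5 libraries at 4706 of the 8489 genes (55.4%), which was true of 25.9% of the genes compared in liver and the library labelled spleen and of 32.6% in gill and fin. Pearson's r between kidney and muscle was 0.885 over 21151 genes on log2(FPKM + 1), and 0.855 over 17560 genes once those at least 2-fold above all others in both libraries were left out. Both values run over genes, and genes are no independent replicates.

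Muscle stood apart first by its parvalbumins, a group picked after its values were seen. The gene that the annotation matches to carp parvalbumin beta (Pjo03783) had an FPKM of 12439.8 in muscle, 0.22 in kidney, 4.35 in gill and at most 0.12 in the other 4 libraries. It had the largest ratio of all, at -13.32 on the log2 scale. The carp parvalbumin alpha match (Pjo12760) was 2709 in muscle and 0.04 in kidney, and pvalb7 (Pjo21665) 217 and 0.63. All 3 were under 1 in heart. The remaining compared parvalbumin, matched to the chicken thymic form (Pjo12761), went the other way, at 26.3 in kidney, 0.75 in muscle and at most 0.09 elsewhere. The 9 parvalbumin genes together held 2.19% of the summed FPKM of muscle.

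The fast sarcomere list followed, with 20 of its 21 compared genes higher in muscle, as were 2.76% of all compared genes, and none in kidney. Its median log2 ratio over all members above 0 was -3.56, where that of all genes in the table was 0.05. Skeletal alpha actin acta1 (Pjo16962), the thin filament itself, was 6707 in muscle, 0.12 in kidney, 17.6 in gill and 0.56 or less elsewhere, which gives -12.55 on the log2 scale. MYLPF, the regulatory light chain of fast myosin, was 4226 against 0.05. Among the myosin heavy chains, MYH1B was 1863 and MYH13 (Pjo05530) 1236 in muscle, and each was 0.02 in kidney. TNNT3 (Pjo07736), the fast troponin T that ties troponin to tropomyosin, was 3438 against 1.97. Fast alkali light chain myl1 (Pjo10277) was 945 against 0.02. The table's lancl1 (Pjo01050) is described there as skeletal myosin light chain 3, and at 5363 in muscle against 20.4 in kidney it was among the most abundant genes of muscle. Tropomyosin was also high outside muscle: the tpm1 copy Pjo19024 was 566 in muscle and 58.7 in kidney, but 793 in fin.

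Slow and cardiac-type sarcomere genes were high in the same library. All 18 compared members were higher in muscle, against 2.76% of all compared genes, and the list's median above 0 was -2.04. MYL2 (Pjo10851), the slow and ventricular regulatory light chain of mammals, was 1291 in muscle, 19.9 in gill, 0.80 in heart and listed at 0 in kidney. MYL4 (Pjo01262) was 1170.5 in muscle against 0.50 in kidney, and ACTC1 (Pjo24801), cardiac alpha actin, 1108 against 0.64. Slow troponin C Tnnc1 (Pjo23056) was 221 against 0.02, and the slow troponin I copies Pjo24663 and Pjo18007, both Tnni1, were 204 and 158 in muscle against 0.05 and 0. Myoglobin mb (Pjo00192), the oxygen store of red muscle, was 236 in muscle and 2.04 in kidney, both far below 10491 in heart. Of the 18 genes, 12 were under 1 in heart and 3 were higher in heart than in muscle.

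Z disc and M band proteins anchor the filaments, and 22 of the 27 compared were higher in muscle, against 2.76% of all compared genes. None was higher in kidney. Kidney was under 1 at 16 of the 22, so these passed the minimum through muscle alone. The list's median above 0 was -2.34, beside 0.05 for all genes. TCAP (Pjo03601), the titin cap, was 707 against 0.08, and desmin des (Pjo09846), the fibre's intermediate filament, 168 against 0.02. MYOZ1 (Pjo13487), myozenin of fast fibres, was 137 in muscle, listed at 0 in kidney and at most 0.25 elsewhere. Heart exceeded muscle at 15 of the 22: TCAP was 1469 there and des 985. The M band gene MYOM2 split by copy, with Pjo11951 at 25.3 in muscle and 183 in heart, and Pjo13218 at 17.7 and 0.02.

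**Figure D2:**
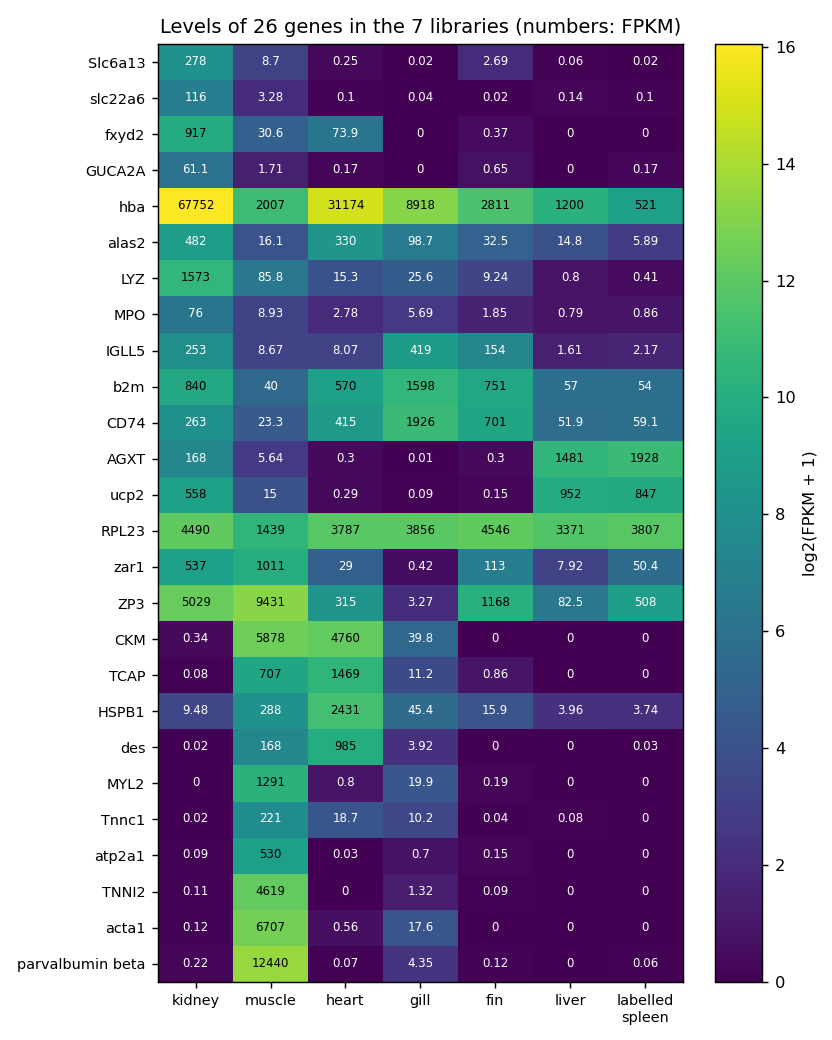
FPKM of 26 genes (rows) in the 7 libraries (columns), coloured by log2(FPKM + 1) with the FPKM printed in each cell; parvalbumin beta is Pjo03783 and each symbol is the copy named in the text. Tubule genes such as Slc6a13 are in kidney with 3% or so of that level in muscle, the globin hba is in every library, the antigen presentation genes peak in gill, AGXT in liver and the library labelled spleen, and fast muscle genes are in muscle with kidney values of 0.34 or less.

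Calcium handling followed the same split, with 13 of 18 compared genes higher in muscle, against 2.76% of all compared genes. Kidney was under 1 at 10 of the 13, so these passed the minimum through muscle alone. The list's median above 0 was -1.77, beside 0.05 for all genes. The fast-fibre calcium pump atp2a1 (Pjo12857), which refills the sarcoplasmic reticulum, was 530 in muscle, 0.09 in kidney and at most 0.70 elsewhere. Its inhibitor sarcolipin, Sln, was 814 against 0.14 and listed at 0 in heart, fin, liver and the library labelled spleen. Calsequestrin CASQ1 (Pjo01980), which binds calcium inside that store, was 346 against 3.81. The slow and cardiac pump had a pair of compared copies: ATP2A2 Pjo09348 was 185 in muscle, 13.5 in kidney and 706 in heart, while ATP2A2 Pjo21232 was 23.1 in muscle and 24.8 in kidney. The release channel Ryr1 (Pjo18369) was 16.7 against 1.47.

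Energy supply varied gene by gene. Of 28 compared members of the muscle energy list 11 were higher in muscle, against 2.76% of all compared genes. Another 2 were higher in kidney, near the 5.9% of all compared genes. The list's median above 0 was -1.16. Both creatine kinase copies, which buffer ATP from phosphocreatine, were among the most abundant genes: CKM Pjo05440 was 7155 in muscle, 5885 in heart and 1.89 in kidney, and CKM Pjo15297 was 5878, 4760 and 0.34. Adenylate kinase ak1 (Pjo04896) was 1833 against 22.2, the muscle phosphoglycerate mutase PGAM2 (Pjo21208) 539 against 0.12, and AMP deaminase AMPD1 (Pjo09358) 132 against 0.06. The ADP/ATP carrier SLC25A4 (Pjo00878) was 453 against 0.33. It was the 1 solute carrier of 140 compared that was higher in muscle, where 2.76% of all compared genes were. Glycolytic genes with wider use differed less: gapdh (Pjo16701) was 3175 against 1091 and ENO3 (Pjo22508) 458 against 201. Of 21 compared fatty acid oxidation genes only Pjo18048, the mitochondrial entry step, was called, at 30.7 in muscle and 2.31 in kidney. It has the symbol CPT1A but is also described as carnitine palmitoyltransferase I B. Over all compared genes 8.66% were called.

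Genes of myosin folding and muscle breakdown were higher in muscle at 11 of 14 compared, against 2.76% of all compared genes. Kidney was under 1 at 10 of the 11, so these passed the minimum through muscle alone. The list's median above 0 was -1.90, beside 0.05 for all genes. The ubiquitin ligase TRIM63 (Pjo06483), which marks sarcomere proteins for degradation, was 484 against 0.04, and the myosin chaperone unc45b (Pjo09354) 183 against 0.32. FBXO32 (Pjo16409), another ligase of muscle wasting, was not called, at 135 in muscle and 44.7 in kidney. Among 45 compared heat shock genes and co-chaperones, a group picked after its values were seen, 17 were higher in muscle and none in kidney. Of all compared genes 2.76% were higher in muscle, and the heat shock group's median above 0 was -0.34. The hsp70 copy Pjo09081 was 193 in muscle, 0.14 in kidney and 10.2 in heart, and the hsp70 copy Pjo03567 308, 22.8 and 203. Small heat shock protein HSPB1 (Pjo06081) was 288 in muscle, 9.48 in kidney and 2431 in heart. The muscle co-chaperone Bag3 (Pjo13576) was 171 against 5.50, and hsp90a.1 (Pjo20585), which folds myosin in zebrafish, 354 against 44.7 and 1667 in heart. Heart was above muscle at 11 of the 17.

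Regulators were few above the minimum. The myogenic factor myod1 (Pjo24471) was 56.3 in muscle, 0.34 in kidney and 1.08 or less elsewhere. Its log2 ratio was -5.42, and it was the 1 called gene of 3 compared on its list. Over all compared genes 2.76% were higher in muscle. At the nerve-muscle junction MUSK (Pjo11328), the receptor that clusters acetylcholine receptors, was 10.6 against 0.09. A subunit of the acetylcholine receptor, chrna1 (Pjo06400), was 10.95 against 1.71. The gene ache (Pjo08009), which breaks acetylcholine down, was 56.2 against 31.6. It is also described as the chromatin complexes subunit BAP18, so its value may not be that of ache alone. Of 9 compared matrix genes of fibroblasts 5 were higher in muscle, against 2.76% of all compared genes. All 5 passed the minimum through muscle alone, and the matrix list's median above 0 was -0.79. Among the 5 were the type I collagens: COL1A1 Pjo03634 was 43.5 against 3.41 and col1a2 31.9 against 2.88. Both were far higher in fin, at 362 and 342.

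In kidney the tubule genes came forward. The table holds 84 proximal tubule genes, of which 22 reached the minimum, and 16 of these were higher in kidney, as were 5.9% of all compared genes, and none in muscle. Over the 83 above 0 the median log2 ratio was 0.90. The organic anion carrier slc22a6 (Pjo20977), which loads waste anions from blood into the tubule, was 116 in kidney, 3.28 in muscle and at most 0.14 elsewhere. PDZK1 (Pjo09820), the scaffold that holds carriers in the brush border, was 104 in kidney, 3.50 in muscle and at most 0.08 elsewhere. The related anion carrier SLC22A7 had a pair of copies with different profiles: Pjo17309 was 42.9 in kidney and 1.54 in muscle, and Pjo17310 46.1 and 14.1. Sugar and amino acid uptake was represented by Slc5a1 (Pjo11158), the sodium-glucose carrier, at 12.7 against 0.38, and by Slc6a19, the neutral amino acid carrier, at 20.6 against 1.09 for Pjo16652 and 13.4 against 0.46 for Pjo18706. The brush border peptidase Anpep (Pjo24870) was 35.6 against 1.59, and CDH17 (Pjo16358), a cadherin of kidney and gut in zebrafish, 49.6 against 3.13. The protein uptake receptor LRP2 differed by copy, with Pjo10367 at 10.2 in kidney and 0.43 in muscle but Pjo11343 at 42.2 and 51.4.

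Salt handling further down the nephron gave 6 called genes of 9 compared, all higher in kidney, as were 5.9% of all compared genes. Most of the 9 passed the minimum through kidney alone, and the list's median above 0 was 0.50 beside 0.05 for all genes. The sodium pump subunit fxyd2, at a locus outside the named annotation, was the most abundant, at 917 in kidney, 30.6 in muscle, 73.9 in heart, 0.37 in fin and 0 in gill, liver and the library labelled spleen. SLC12A1 (Pjo17894), the carrier of the diluting segment, was 12.7 against 1.5 and at most 0.13 elsewhere. The sodium-chloride carrier of the distal tubule had a kidney copy, slc12a3 Pjo18184, at 37.7 in kidney, 4.10 in muscle and at most 0.16 elsewhere, and a copy highest in gill, SLC12A3 Pjo08455, at 28.2, 13.8 and 240 in gill. GUCA2A (Pjo11745), the salt hormone guanylin, was 61.1 against 1.71 and at most 0.65 elsewhere. The urate carrier Slc2a9 (Pjo11150) was 18.4 in kidney and 0.32 in muscle. Across all 486 solute carrier genes, 140 were compared and 28 were higher in kidney, beside 5.9% of all compared genes. Families 6, 16 and 22 had 3 each of these. The families of the mitochondrial membrane (27 compared) and of the nucleotide sugar carriers (slc35, 16 compared) had medians of -0.05 and -0.03. The median over all solute carriers above 0 was 0.15, and 0.00 after median-of-ratios scaling.

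Glomerular and steroid genes hardly reached the minimum. Of 30 podocyte and glomerulus genes only 1 did, a Myo1e copy (Pjo16141) at 18.6 in kidney and 21.4 in muscle. The slit diaphragm gene NPHS1 (Pjo15560) was 6.06 in kidney and 1.32 in muscle. Of 15 interrenal and chromaffin genes 1 was compared, FDX1 (Pjo10090), at 46.5 against 56.1. Below the minimum, the steroid enzymes cyp17a1 (Pjo13618) and CYP21A2 (Pjo16642) were 4.61 and 3.46 in muscle, against 0.25 and 0.08.

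Red cell genes separated the libraries by abundance more than by number. All 6 compared globins were higher in kidney, as were 5.9% of all compared genes. The globin list held 17.9% of the summed FPKM of kidney against 0.530% in muscle. The beta globin hbb (Pjo03031) was 59808 in kidney, 1468 in muscle and 24914 in heart, and the second pair, hbb2 Pjo03028 and hba Pjo03029, was 5492 and 3456 in kidney, against 140 and 95.6. Globin copies are alike, so their split is uncertain. Of 18 compared erythroid genes 7 were higher in kidney, beside 5.9% of all compared genes, and none in muscle. Most of the 7 passed the minimum through kidney alone. The erythroid list's median above 0 was 0.94, beside 0.05 for all genes. Among the heme synthesis enzymes on the list only alas2 (Pjo09163), the red cell form of the first enzyme, was called. It was 482 in kidney, 16.1 in muscle and 330 in heart. The later enzymes ALAD (Pjo04967), FECH (Pjo21523) and UROS (Pjo12256) were 26.8, 16.7 and 18.9 in kidney, against 22.9, 15.1 and 20.04. CPOX (Pjo09228) was 44.2 against 31.2, and PPOX (Pjo16048), below the minimum, 2.80 against 0.55. The band 3 anion exchanger slc4a1 (Pjo03587) was 274 against 10.7, the receptor Epor (Pjo02878) for erythropoietin 44.3 against 2.81, and the iron importer slc25a37 (Pjo08708) of mitochondria 12.0 against 0.78. The membrane skeleton gene EPB41 differed by copy, at 56.15 against 2.01 for Pjo16370 and 32.1 against 41.5 for Pjo02377, which the table also describes as band 4.1-like protein 3, a related gene.

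Of 19 genes on the blood stem cell list 3 were compared. All 3 were higher in kidney, as were 5.9% of all compared genes, but GATA2 and Spi1 passed the minimum through kidney alone. The list's median above 0 was 0.82 beside 0.05 for all genes. GATA2 (Pjo11797), a factor of blood stem cells, was 25.3 against 0.62, CEBPA (Pjo07781), of myeloid cells, 155 against 13.6, and Spi1, of myeloid and B cells, 35.8 against 3.18. Below the minimum, the GATA2 copy Pjo11400 was 3.50 in kidney, 3.17 in muscle and 71.2 in gill. LYL1 (Pjo06179), not on that list and named for its ratio, is related to the stem cell factor TAL1 and was 62.4 in kidney, 0.12 in muscle, 49.8 in heart, 18.9 in gill, 0 in the library labelled spleen, 1.95 in liver and 3.47 in fin. Its ratio of 5.82 was above that of every globin. Thrombocyte genes Gp1bb (Pjo09447) and Gp9 (Pjo23371), parts of the von Willebrand factor receptor, were 122 and 46.6 in kidney, against 2.78 and 1.09. On the same list THBS1 (Pjo16952), a matrix protein also made by fibroblasts, was 15.6 in muscle and 0.51 in kidney, and 325 in fin.

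Granulocyte genes were higher in kidney at 13 of 16 compared, against 5.9% of all compared genes, and at none in muscle. Their median above 0 was 2.33. Lysozyme LYZ (Pjo23827), which cuts bacterial walls, was 1573 in kidney, 85.8 in muscle, 15.3 in heart, 25.6 in gill, 9.24 in fin and under 1 in liver and the library labelled spleen. Lect2 (Pjo14357), a chemotactic protein, was 394 in kidney, 30.1 in muscle and 80.4 in the library labelled spleen. MPO (Pjo11173), the peroxidase of granules, was 76.0 against 8.93, and CYBB (Pjo11719), the oxidase subunit that makes superoxide, 67.0 against 4.22. The protease MMP9 (Pjo09090) was 211 against 20.4 and the granulocyte growth factor receptor CSF3R (Pjo16838) 19.4 against 1.81. For LYZ and MPO muscle was above each of the 5 remaining libraries, which reached 25.6 and 5.69, while CYBB was higher in gill, at 8.51, than in muscle.

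Antibody genes made up 28 of the 501 genes higher in kidney. Among 173 genes whose annotation names an immunoglobulin chain, a group picked after its values were seen, 34 were compared. Of these 28 were higher in kidney, against 5.9% of all compared genes, and none in muscle. Kidney was above muscle by any amount in 29 of the 34, and the group's median above 0 was 1.06. Summed over all 173 genes the libraries were closer, at an FPKM of 2776 in kidney and 1594 in muscle. The light chain genes named IGLL5 were 253 against 8.67 at one locus and 236 against 19.0 at the next, with 419 and 267 in gill. Another IGLL5 locus was 67.7 in kidney, listed at 0 in muscle and 87.2 in gill. These loci are alike in sequence and their values are uncertain. Of 15 of the 28 genes gill had more than kidney. Of the other B cell markers, CD22 (Pjo15997) was 49.7 against 6.06 and SYK (Pjo11297), a kinase of the B cell receptor, 24.8 against 1.87, whereas pax5 (Pjo00810) was near equal. T and NK cell genes were compared at 4 of 40, and 1 was higher in kidney, the chemokine receptor Ccr9 (Pjo01830), at 81.8 against 6.80 with 395 in gill. Bcl11b (Pjo21177) was 25.4 in kidney and 27.7 in muscle, and CD28 (Pjo09865) 8.97 and 14.9.

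Antigen presentation genes, also grouped after their values were seen, were higher in kidney at 10 of 13 compared, against 5.9% of all compared genes. The median above 0 of this group, with 53 genes in all, was 0.37 beside 0.05 for all genes. Each of the 10 was higher still in gill. The class I light chain b2m (Pjo04472) was 840 in kidney, 40.0 in muscle, 1598 in gill, 751 in fin and 570 in heart. The class II chaperone CD74 (Pjo20897) was 263 in kidney, 23.3 in muscle and 1926 in gill. Within the proteasome 4 of 44 compared genes were higher in kidney, where 5.9% of all compared genes were. Among the 4 was the catalytic subunit psmb9-a (Pjo18807), made on interferon signals for peptide supply to class I, at 17.01 against 0.69 and 57.5 in gill. The standard subunits were nearly level, as for psma7 (Pjo19817) at 147 in kidney and 161 in muscle. The proteasome list's median above 0 was -0.13 and turned to 0.02 with a common sum without the globins.

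A further set of kidney genes was shared with liver. Among 44 enzymes of amino acid and sugar metabolism, picked after their values were seen, 20 were compared. Of these 11 were higher in kidney, against 5.9% of all compared genes, and 7 of the 11 were higher still in liver. The 4 named below passed the minimum through kidney alone. The group's median above 0 was 0.19, beside 0.05 for all genes. AGXT (Pjo01599), which detoxifies glyoxylate, was 168 in kidney, 5.64 in muscle and 1481 in liver, beside 1928 for the library labelled spleen. G6PC1 (Pjo12957), the last step of glucose release, was 94.0 against 3.39 with 1929 in liver, and ARG1 (Pjo12892), which splits arginine to urea, 112 against 3.59 with 426 in liver. Uroc1 (Pjo06856), an enzyme of histidine breakdown, was 54.8 in kidney, 1.6 in muscle and 57.2 in liver. Heart had 0.58 or less of these 4 enzymes. The hepatocyte list, by contrast, had 4 compared genes of 41 and a median above 0 of 0.03, which was -0.03 after median-of-ratios scaling.

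**Figure D3:**
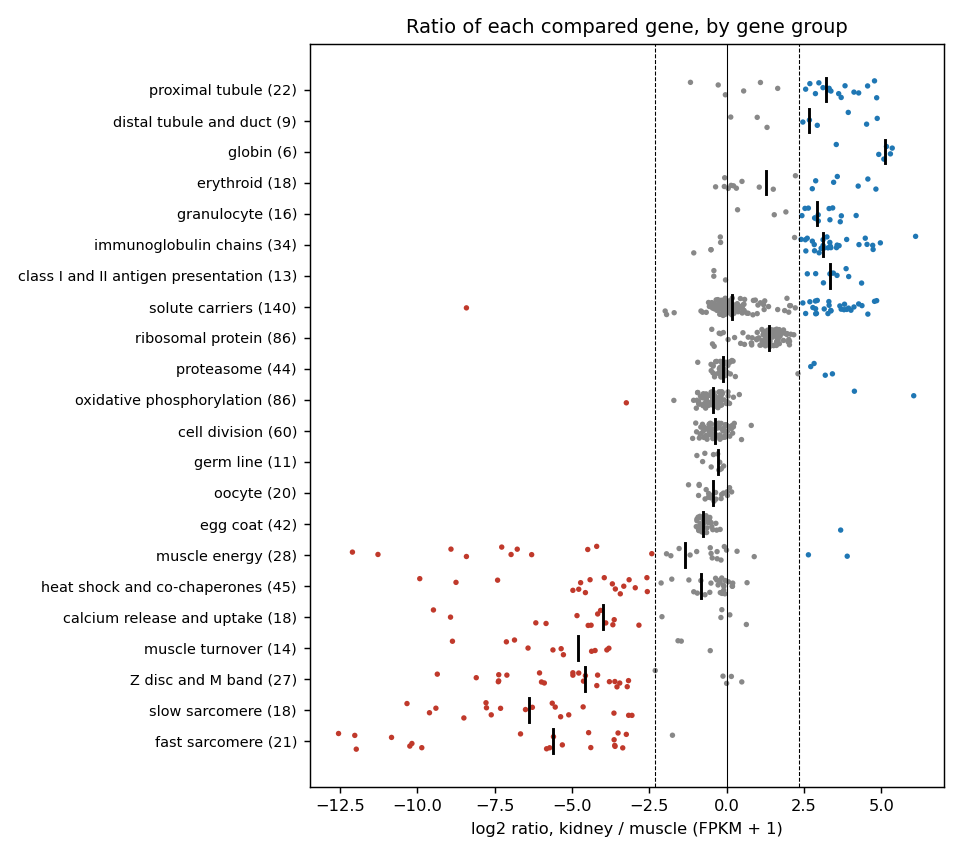
Each point is 1 compared gene, placed by its log2 ratio of kidney to muscle on the x axis and by gene group on the y axis, with the number compared in brackets; black ticks are medians of the compared genes, dashed lines the 5-fold limits, blue and red points genes higher in kidney and in muscle. Kidney groups end at 6.10 on the right, while muscle groups reach -12.55 on the left; ribosomal protein genes lie between -0.49 and 2.17.

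Most genes that were seen mainly in kidney were low but above 0 in muscle. Of 18 called genes with a symbol at 20 or more in kidney and under 1 in each of the other 5 libraries, muscle was above all 5 in 16, and its level was a median of 3.59% of that in kidney (range 0 to 10.9%). For slc22a6 it was 2.82%, for PDZK1 3.35%, for GUCA2A 2.80% and for SLC22A7 Pjo17309 3.59%. All 18 were taken from the called genes, and the 5-fold limit itself keeps such a percentage low. The choice held the other 5 libraries under 1 but not muscle, so the count of 16 is partly set by it. Exceptions among the 18 were NDUFB1 (Pjo20521) and slc5a8 (Pjo07014). NDUFB1 was 64.9 in kidney and 0 in the remaining libraries, and slc5a8 was 23.6 in kidney, 0.78 in muscle and 0.95 in liver. Below the level of 20, FXYD2 Pjo15082 was 14.2 in kidney and 0 in muscle. That gene is also described as Down syndrome cell adhesion molecule-like protein 1. In the other direction the levels were lower. Of 21 called genes with a symbol at 20 or more in muscle and under 1 in the other 5, kidney was above all 5 in 3. Its level was a median of 0.0170% of that in muscle, at most 1.75%. These 21 were chosen in the same way. Whether tissue, RNA or reads of kidney were in the muscle sample was not tested.

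**Figure D4:**
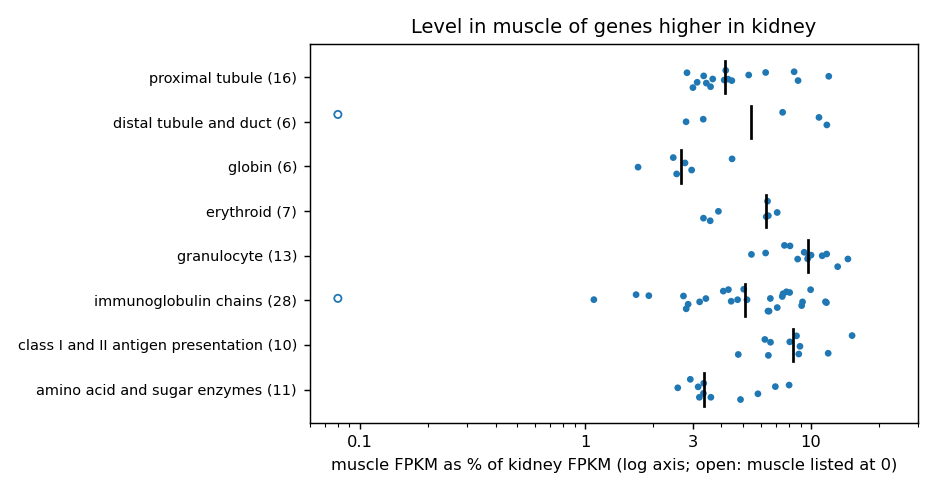
For genes higher in kidney, the muscle FPKM as a percentage of the kidney FPKM (x axis, log scale) by gene group (y axis, number of genes in brackets); ticks are medians and open points genes listed at 0 in muscle. Each point is a gene already called higher in kidney, so the 5-fold limit keeps every point low; medians are 2.65% for globins, 3.35% for the amino acid and sugar enzymes and 9.68% for granulocyte genes.

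Egg coat genes were high in both libraries. Muscle was above kidney in 41 of 42 compared egg coat genes, against 57.4% of all compared genes. Egg coat genes code for the proteins of the shell around the egg. Kidney stood at a median of 58.8% of muscle in the 42 above 0 in both, with 80% of them between 53.0% and 71.1%. The most abundant, a ZP3 locus outside the named annotation, was 5029 in kidney, 9431 in muscle, 315 in heart, 3.27 in gill, 508 in the library labelled spleen, 82.5 in liver and 1168 in fin. The lowest ratio was that of ZP3 Pjo17395 at 662 and 1313, and a single gene went the other way, ZP3 Pjo16996, at 11.8 in kidney and listed at 0 in muscle. A ladderlectin-like gene with no symbol (Pjo09485), the most abundant gene of muscle, was 12938 there and 5472 in kidney, with 4.64 in gill.

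By their medians, oocyte and germ line genes were closer to equal than egg coat genes, though not every oocyte gene was. Summed FPKM of the oocyte list was 3224.7 in kidney and 5396.7 in muscle, beside 42998.5 and 75784.4 for the egg coat list. Of 20 compared oocyte genes none was called, where 8.66% of all compared genes were, and kidney was at a median of 72.9% of muscle. The maternal factor zar1 (Pjo19741) was 537 in kidney and 1011 in muscle, and gtf3a (Pjo23875), the 5S RNA transcription factor that frog and fish oocytes stock, 175 and 413. All 11 compared germ line genes were above kidney in muscle, against 57.4% of all compared genes, and none was called. The ratio closest to equal among the 11 was -0.10 on the log2 scale, so this count may change with the scaling. The RNA helicase DDX4 (Pjo11286) was 92.9 and 126, piwil2 (Pjo05895), which guards germ cells from transposons, 25.15 and 31.1, and dazl (Pjo19069), a translation factor, 42.0 and 50.4. Of 60 compared cell division genes none was called and 50 were above kidney in muscle, against 57.4% of all compared genes. Both shares move with the scaling: they were 58 of 60 against 82.1% after median-of-ratios scaling and 41 of 60 against 42.5% with a common sum without the globins. Gmnn (Pjo19419), which blocks a second round of replication, was 718 in kidney and 1414 in muscle, and Cdc20 (Pjo01524), which triggers chromosome separation, 305 and 483. Whether these genes come from eggs or ovary in both samples was not tested. The markers of ovarian follicle cells were compared at 2 of 29 genes, and inhibin INHA (Pjo06503) was 12.8 in kidney and 23.4 in muscle.

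Within the genes that kidney and muscle shared against all others, the ratio moved with the level. In 548 genes both libraries were at least 5-fold above each of the other 5. Muscle was above kidney in 467 of them, against 57.4% of all compared genes. Where the higher value was from 10 to below 20, kidney was at a median of 95.6% of muscle (83 genes). It was at 87.5% from 20 to below 50 (197 genes), at 82.0% from 50 to below 100 (121 genes) and at 68.2% from 100 upward (147 genes). The 467 and these percentages hold for the deposited scale and were not computed under the other scalings. Another scaling would move the percentages together, and the first of them is near equal. The only called gene among the 548 was a cystatin-A-like gene with no symbol (Pjo06104), named for a family of protease inhibitors, at 349 in kidney, 33.1 in muscle, 1.34 in heart and 0 elsewhere. In the 3783 compared genes where the pair was not above all others, the median log2 ratio was 0.20, against -0.19 in the 4706 where it was.

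Ribosomal protein genes lay on the kidney side. Of 86 compared, 80 were above muscle in kidney against 42.5% of all compared genes, though none reached 5-fold, and their sum was 16.5% of all FPKM in kidney and 6.99% in muscle. The median log2 ratio over the 89 above 0 was 1.35, and 0.95 to 1.51 under the other scalings. RPL23 (Pjo03298) was 4490 in kidney, 1439 in muscle, 3787 in heart, 3856 in gill, 3807 in the library labelled spleen, 3371 in liver and 4546 in fin, so that muscle was the lowest of the 7. The stalk protein gene rplp0 (Pjo06094) was 3643 in kidney, against 1042 in muscle. The list takes symbols by their first letters and so includes rps19bp1 (Pjo06193), which is not a ribosomal protein and was 28.3 against 39.3. Respiratory chain and ATP synthase genes leaned the other way, with 78 of 86 above kidney in muscle, against 57.4% of all compared genes. After median-of-ratios scaling these were 83 of 86 against 82.1%, and with a common sum without the globins 75 of 86 against 42.5%. The median over the 92 above 0 was -0.42, and 3 genes were called, where 8.66% of all compared genes were. Cox7a2 (Pjo15231), a subunit of cytochrome oxidase, was 49.98 in kidney, 483 in muscle and 3320 in heart, and a COX6B1 copy (Pjo23539) 116 in kidney and 5.71 in muscle. The third was NDUFB1.

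Gene copies went opposite ways for 6 of the 777 symbols with at least 2 compared copies: pkm, ucp2, Clic5, NMRK2, TXNIP and gpt2l. Pyruvate kinase pkm, the last step of glycolysis, had Pjo24610 at 154 in muscle, 102 in heart and listed at 0 in kidney, and Pjo15810 at 30.6 in kidney, 1.13 in muscle and 274 in liver. The mitochondrial carrier ucp2 had Pjo00261 at 558 in kidney, 15.01 in muscle and 952 in liver, and Pjo10770 at 42.7 in muscle, 51.5 in heart and 0.02 in kidney. NMRK2, a kinase that makes NAD precursors, had Pjo22335 at 532 in kidney, 17.8 in muscle and 383 in heart, and Pjo02320 at 128 in muscle, 22.8 in kidney and 2074 in heart. TXNIP, an inhibitor of thioredoxin, had Pjo19298 at 522 in kidney and 87.5 in muscle, and Pjo16034 at 18.8 in muscle and 0.01 in kidney. Clic5 had Pjo20426 at 13.45 in kidney and 0.67 in muscle, and Pjo17029 at 0.11 and 50.7. The alanine aminotransferase gpt2l had Pjo20560 at 29.4 in kidney and 1.06 in muscle, and Pjo12839 at 6.41 and 41.7. The genes shared a symbol and were not shown to be each other's duplicates.

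Few markers of other cell types reached the minimum. Of 49 macrophage genes 5 were compared, and 1 of them, Spi1, was called. Kidney was above muscle in 4 of the 5, against 42.5% of all compared genes, but Spi1 passed the minimum through kidney alone. The exception among the 5, CTSS (Pjo16299), a lysosomal protease of these cells, was 284 in kidney and 334 in muscle. The macrophage list's median above 0 was 0.28 beside 0.05 for all genes. Of 21 endothelial genes 5 were compared and 1 was called, the lymphatic receptor FLT4 (Pjo16439), at 53.8 against 4.70 with 205 in gill. All 5 were above muscle in kidney, but most of them passed the minimum through kidney alone. The endothelial list's median above 0 was 0.14 beside 0.05 for all genes, and members below the minimum went both ways. None of 11 compared epidermis genes was called, where 8.66% of all compared genes were. Epcam (Pjo13285), an adhesion protein of epithelia, was 616 in kidney, 1154 in muscle and 4472 in gill. No exocrine pancreas gene reached the minimum, and 1 of 43 Hox genes did. That gene has the symbol hoxa13b (Pjo16674) but is also described as a mitochondrial 3-hydroxyisobutyrate dehydrogenase. Of 25 compared immediate early genes, which answer stress at sampling among other signals, 2 were higher in kidney, near the 5.9% of all compared genes. FOSL2 (Pjo17512) was 46.8 against 7.69. The other, Pjo06334, at 25.4 against 0.94, has the symbol Klf4 but is also described in the table as Krueppel-like factor 1, a red cell factor in mammals. The list's median above 0 was 0.00, and fos (Pjo20470) was 41.6 in kidney and 97.5 in muscle.

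Most of the called genes were also found in another library. At least 1 of the other 5 reached an FPKM of 1 for 92.6% of those higher in kidney and 81.6% of those in muscle. Among uncalled genes the share was 99.6%. Among the 501 higher in kidney, the highest of the other 5 libraries was gill for 251, heart for 97, the library labelled spleen for 70, fin for 63 and liver for 16, and 4 were at 0 in all 5. Another library was above kidney for 258 genes, 142 of them in gill, and 70 genes were at least 5-fold above all 5. Among the 234 higher in muscle heart was the highest for 131 and was above muscle for 85. Gill followed with 55 and fin with 40, and 85 genes (36.3%) were at least 5-fold above all 5. For uncalled genes the highest was fin in 61.1%, gill in 21.4% and heart in 13.2%. In gill the genes higher in kidney had a median FPKM of 14, beside 23.6 in kidney and 1.5 in muscle. In heart those higher in muscle had a median of 17.3, beside 42.1 in muscle and 0.32 in kidney.

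**Figure D5:**
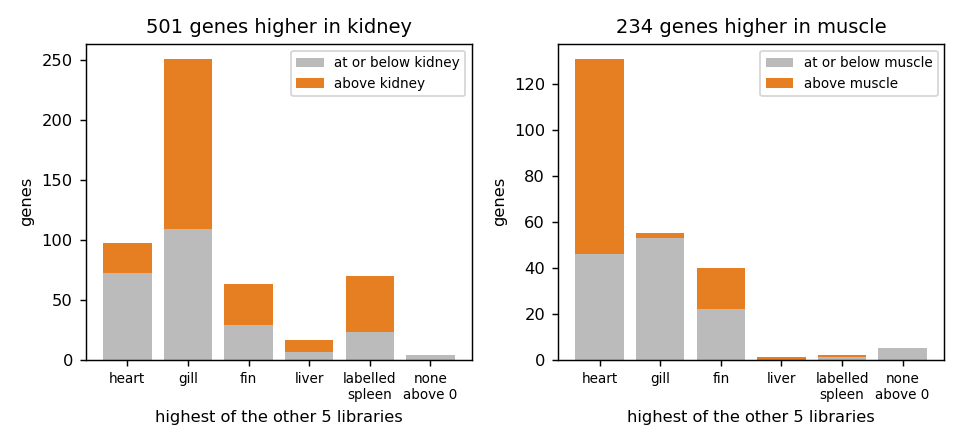
Number of genes (y axis) by the library that was highest among the other 5 (x axis), for the 501 genes higher in kidney (left) and the 234 higher in muscle (right); orange marks genes for which that library was above the tissue itself. Gill leads on the left with 251 genes, 142 of them above kidney, and heart on the right with 131, 85 of them above muscle.

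Near the 5-fold limit the calls were a matter of hundredths. Inside it on the kidney side were AHCYL1 (Pjo09080) at 11.2 against 1.42 and SELP (Pjo20239) at 10.8 against 1.33. Just outside were C1qa (Pjo21100), a complement gene of macrophages, at 35.1 against 6.23 and Plcg2 (Pjo18100) at 23.7 against 4. Psmb8 (Pjo18804), a further interferon-induced proteasome subunit, was also just outside, at 49.3 against 9.22. Pjo21100 is also described as F-box only protein 40. On the muscle side MYOC (Pjo19869), at 52.2 against 9.56, LMO7 (Pjo09963) and MLYCD (Pjo18104) were just inside. NRAP (Pjo12505), a Z disc gene at 22.4 against 3.71, and NNT (Pjo17887) were just outside.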

How the data were processed

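TRIzol RNA went into a Vazyme VAHTS kit for MGI sequencing, per the labels' protocols. HISAT2 2.2.1 and RSEM 1.3.3 are named in the submitters' processing notes, whereas build and annotation were not given in the sources used here. FPKM were deposited by the authors to 2 decimals, with no read totals. A share-type unit lowers every other gene where a few are very abundant, and reads of near-identical copies may be divided unevenly, so values of single copies are uncertain.

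Ratios, counts and Pearson correlations were computed with pandas 2.3.3 and numpy 2.4.6 in Python 3.11.15, and figures drawn with matplotlib 3.10.9. A pseudocount of 1, a minimum FPKM of 10 in the higher library and a 5-fold limit were used, and the rule was tested on simulated libraries. There were 38 gene lists and 6 groups added later. The compared libraries, lists and rules were chosen with earlier results of these data known. Named genes were, among others, those of largest ratio and abundance, the 8 highest and the called members of each list, symbols with opposite copies and genes nearest the limit; those of the added groups were chosen after their values were seen, as were some copies named beside them. Alternatives were other pseudocounts, minimums, limits and scalings, copies summed by symbol, and leaving out loci outside the named annotation. No sequence or genome position is used here. Some genes that the naming rule selects are left out of the text.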

Additional observations from a re-analysis of the deposited data

How the results depend on the processing

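The counts of 501 genes higher in kidney and 234 in muscle moved most with the rule itself. They were 113 and 110 with a pseudocount of 10, 138 and 106 with a minimum of 50, 959 and 445 with a 2-fold limit, and 222 in kidney with a 10-fold limit (183 in muscle, within 1.5 times). A minimum of 1 or none, a pseudocount of 0.1, 3 other scalings, summing copies and, chosen after seeing the data, leaving out loci outside the named annotation kept both counts within 1.5 times. The median log2 ratio was 0.058 with a minimum of 1, 0.031 with none, -0.30 with a minimum of 50, -0.48 after median-of-ratios scaling, 0.082 with a common sum without the globins and -0.30 with one without the egg coat, oocyte and germ line lists. Of 349 named genes, none changed sign under another scaling or pseudocount among those called. Summing the copies of a symbol reversed 9 called genes. These were ucp2 Pjo10770 (0.92), TXNIP Pjo16034 (2.29), gpt2l Pjo12839 (0.48), NMRK2 Pjo02320 (1.35), Slc3a2 Pjo08150 (-0.31), Clic5 Pjo20426 (-1.85), SLC16A7 Pjo18109 (-0.56), ZP3 Pjo16996 (-0.87) and pkm Pjo15810 (-0.63), each then summed with a copy that goes the other way. Of the named genes, 109 were no longer called with a pseudocount of 10, 25 with copies summed, 11 after median-of-ratios scaling, 7 with a common sum without the egg coat, oocyte and germ line lists and 5 with one without the globins. No paired analysis was possible because each tissue has 1 sample, which also leaves no replicate to leave out. Depth is unknown, so values near 0 cannot be told from 0.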
